A study of Rattus norvegicus with 16 samples.

Results

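The data described here are the RNA levels of 10 genes of insulin signaling and nutrient sensing in rat kidney cortex: Insr, Igf1r, Igfbp1, Irs1, Irs2, Pik3r1, Foxo1, Foxo3, Ddit4 and Castor1. They were chosen with earlier results of these data known and were found by gene symbol through the platform's probe annotation. Where a symbol had several TranscriptClusterIDs (the array's gene-level units), that with the highest mean was kept. All 10 were found among the 36685 TranscriptClusterIDs of the array. Foxo1 was the exception with more than 1 TranscriptClusterID.

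The arrays came from 16 male Sprague Dawley rats aged 7 weeks, 4 in each of 4 groups, after 7 days of diet. CNS rats drank water and ate a standard, normal-salt chow. FNS rats drank 20% fructose on the same chow. CHS rats drank water on a chow with 4% NaCl, and FHS rats had both the fructose and the 4% NaCl chow. RNA from the cortex of each rat was read on 1 Affymetrix RaGene 2.0 ST array. By the study's methods the base diets came from different makers and differed in protein, carbohydrate and energy as well as in salt, so salt and the rest of the chow cannot be told apart. Rats were housed in pairs and the cages are not given, so p-values measure the spread between these rats as if they were independent.

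Insulin binds the receptor encoded by Insr, and insulin-like growth factors bind that of Igf1r. Both receptors phosphorylate the scaffold proteins Irs1 and Irs2, which recruit phosphatidylinositol 3-kinase (PI3K), of which Pik3r1 encodes a regulatory subunit. PI3K activates the kinase Akt, which phosphorylates the transcription factors Foxo1 and Foxo3 and keeps them out of the nucleus. When insulin is low they are free to act on target genes, among them Igfbp1, a secreted binding protein for insulin-like growth factors. Akt also relieves the inhibition of mTORC1, the kinase complex that couples growth to nutrients. Ddit4, a protein induced by glucocorticoids and by low oxygen, and Castor1, a sensor of arginine, both restrain mTORC1. In the kidney, the proximal tubule makes glucose, and insulin signaling lowers that output in part through Foxo1.

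Promoters were taken from the RefSeq table for the rat build GRCr8, as 250 bases before to 50 after the start of each gene on the gene's own strand. The table held 8 of the 10 genes, without Irs2 and Foxo3. Those of Igfbp1 and Insr are shown because they were the 2 with a FoxO motif, and those of Ddit4 and Irs1 because these genes had the largest difference between the base diets upward and downward. Capitals mark the motif. The intervals are chr14:86261027-86261326 (plus strand) for Igfbp1, chr12:6128754-6129053 (minus strand) for Insr, chr20:28436988-28437287 (minus strand) for Ddit4 and chr9:91053910-91054209 (minus strand) for Irs1.
Igfbp1: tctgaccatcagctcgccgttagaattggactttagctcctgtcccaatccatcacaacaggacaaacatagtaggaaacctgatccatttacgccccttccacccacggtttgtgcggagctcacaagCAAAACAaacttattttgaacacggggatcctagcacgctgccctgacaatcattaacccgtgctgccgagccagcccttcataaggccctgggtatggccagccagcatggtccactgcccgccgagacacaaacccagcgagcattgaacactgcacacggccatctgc
Insr: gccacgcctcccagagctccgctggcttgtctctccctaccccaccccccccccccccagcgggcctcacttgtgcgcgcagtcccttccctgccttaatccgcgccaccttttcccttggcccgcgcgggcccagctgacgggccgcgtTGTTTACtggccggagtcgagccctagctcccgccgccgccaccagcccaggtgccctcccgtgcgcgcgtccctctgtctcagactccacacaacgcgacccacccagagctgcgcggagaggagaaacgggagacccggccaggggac
Ddit4: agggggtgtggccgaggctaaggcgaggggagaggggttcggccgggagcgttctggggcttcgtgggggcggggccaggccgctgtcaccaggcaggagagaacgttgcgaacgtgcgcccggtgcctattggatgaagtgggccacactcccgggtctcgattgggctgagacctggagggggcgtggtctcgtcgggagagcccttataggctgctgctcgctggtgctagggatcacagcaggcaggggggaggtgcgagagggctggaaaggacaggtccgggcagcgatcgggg
Irs1: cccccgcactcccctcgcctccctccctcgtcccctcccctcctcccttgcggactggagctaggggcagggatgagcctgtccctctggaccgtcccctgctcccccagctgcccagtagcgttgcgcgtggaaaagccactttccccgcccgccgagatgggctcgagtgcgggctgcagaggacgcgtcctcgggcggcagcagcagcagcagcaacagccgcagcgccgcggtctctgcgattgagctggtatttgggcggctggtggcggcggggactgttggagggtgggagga
The motifs searched, on both strands, were the FoxO motifs GTAAACA and CAAAACA and the E-box CACGTG. In Igfbp1 the letters CAAAACA began at base 130 of the 300, on the gene's strand. In Insr the capitals TGTTTAC, at base 151, are GTAAACA read on the other strand. Igf1r held an E-box at base 220, and the other 5 promoters held none of the 3 motifs. Of 33469 rat promoters of the same length, 3.78% held GTAAACA, 6.28% CAAAACA, 9.64% either of them and 6.42% the E-box. GC content was 54.0% in Igfbp1, the lowest of the 8, and 78.0% in Igf1r, the highest.

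The deposited values are log2 RMA levels, which were compared between groups for the same gene only. Over all TranscriptClusterIDs, Pearson's r between 2 arrays ranged from 0.968 to 0.990. Rat 14 of FHS stood apart: its median r with the other arrays was 0.973 against 0.980 to 0.985 for the rest, and its array median of 5.44 was the highest. Array medians were 5.33 to 5.44 in FHS and 5.25 to 5.34 in the other groups. The markers of the proximal tubule S1 and S2 segments were all 7 measured, with a mean at the 99.6th percentile of all TranscriptClusterIDs, and their summed linear level was 34890 to 36591 in CNS, 38939 to 40556 in FNS, 35623 to 42205 in CHS and 33704 to 42804 in FHS. None of these 7 passed the test for fructose or for the base diet averaged over the drinks. In a bulk sample, fewer cells of a type and less RNA per cell cannot be told apart.

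**Figure D1:**
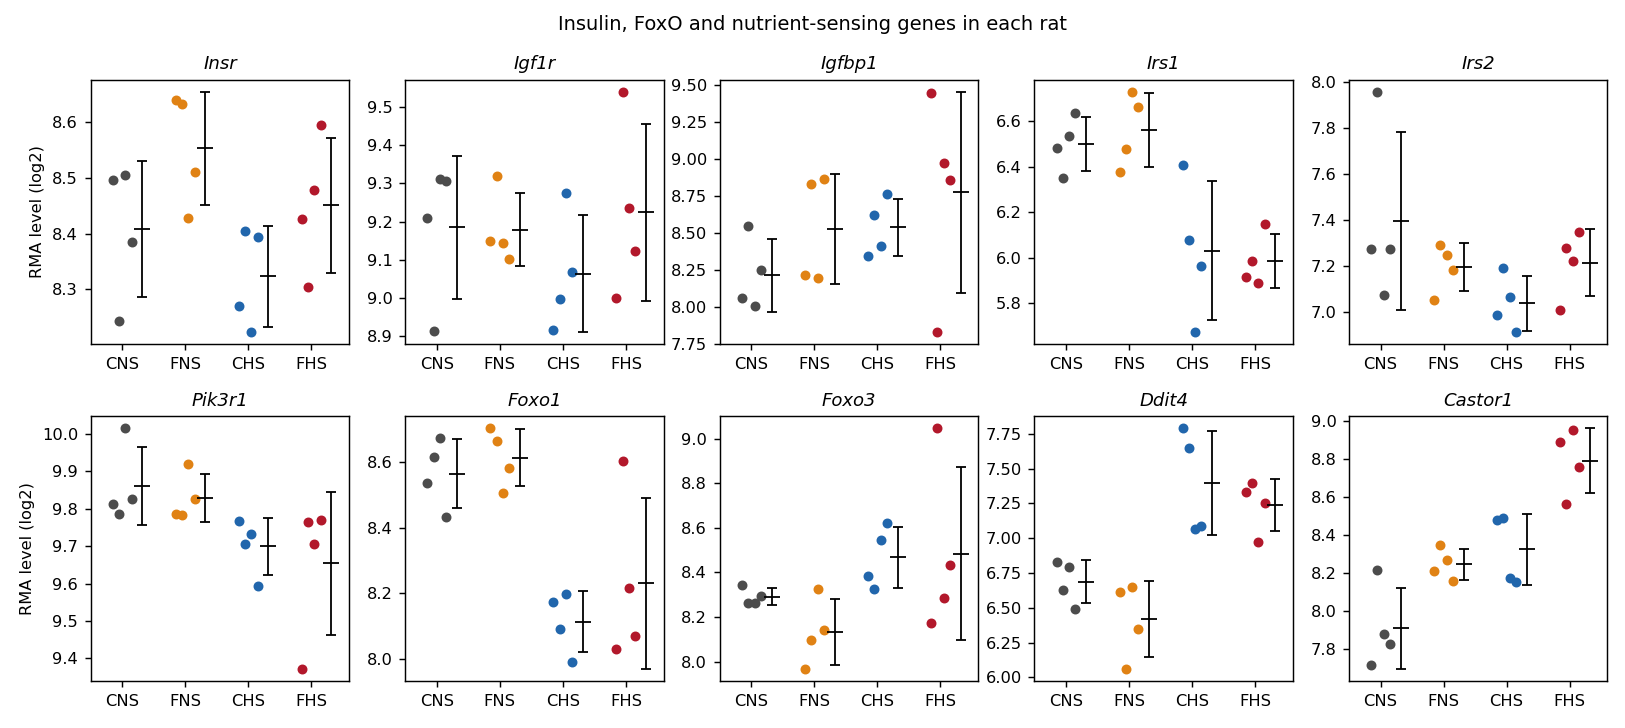
RMA level (log2, vertical axis) of the 10 genes in each of the 16 rats (points) by group, with the group mean and SD beside them (4 rats per group; each panel has its own scale). Ddit4 was higher and Pik3r1 lower in all 8 rats on the high-salt chow than in all 8 on the normal-salt chow, and Castor1 was lowest on average in CNS and highest in FHS.

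The first comparison was between base diets, high-salt minus normal-salt chow averaged over water and fructose. On the high-salt chow Ddit4 and Castor1, which both restrain mTORC1, were higher by 1.70-fold and 1.39-fold, and Irs1 and Foxo1 were lower by 1.44-fold and 1.34-fold. These were the 4 of 10 genes that passed (limma, adjusted p under 0.05 with Benjamini-Hochberg over all 36685), where 13.3% of all TranscriptClusterIDs and 19.2% of those with a mean above the median passed. All 10 genes had a mean above that median of 5.29. Because the 10 were chosen with earlier results of these data known, these shares are a background and not a test of the set. The other 6 did not pass, among them both receptors. The median difference of the 10 was -0.07 on the log2 scale, against 0.02 over all TranscriptClusterIDs.

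Ddit4 (TranscriptClusterID 17758309) had log2 levels of 6.83, 6.63, 6.79 and 6.49 in the CNS rats and 6.61, 6.06, 6.65 and 6.34 in the FNS rats. On the high-salt chow they were 7.79, 7.65, 7.07 and 7.09 in CHS and 7.33, 7.40, 6.97 and 7.26 in FHS. Every high-salt rat was above every normal-salt rat, as was the case for 0.954% of all TranscriptClusterIDs in that direction. The difference was 0.77 on the log2 scale (SE 0.12, 95% interval 0.50 to 1.03, limma adjusted p = 0.00109). It was 0.71 with water (SE 0.18, adjusted p = 0.0377) and 0.82 with fructose (SE 0.18, adjusted p = 0.0156), so Ddit4 passed with both drinks. With water the call was lost on leaving out rat 1, 2, 3, 4, 9 or 10 (adjusted p 0.0668 to 0.103).

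Castor1 (17691150) measured 7.72, 8.22, 7.88 and 7.83 in CNS and 8.21, 8.35, 8.27 and 8.16 in FNS. Its levels were 8.48, 8.49, 8.18 and 8.15 in CHS and 8.89, 8.57, 8.95 and 8.76 in FHS. The FHS rats were above all FNS rats, as in 7.16% of all TranscriptClusterIDs, and above all CHS rats, as in 2.99%. The ranges of FNS and CHS, the middle groups by mean, overlapped. The base diets differed by 0.48 (SE 0.09, 95% interval 0.29 to 0.66, adjusted p = 0.00242). With fructose the difference was 0.54 (SE 0.12, adjusted p = 0.0217), and with water it was 0.41 (SE 0.12, adjusted p = 0.0819), which did not pass. The call with fructose was lost without rat 5, 8, 13 or 15 (adjusted p 0.0598 to 0.0655), and with water the difference passed without rat 2 (0.52, adjusted p = 0.0301).

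Irs1 (17865965), the scaffold protein that carries the insulin signal from the receptor, was the most reduced of the 10 genes. Its levels were 6.48, 6.35, 6.54 and 6.64 in CNS and 6.38, 6.48, 6.73 and 6.66 in FNS, against 6.41, 6.08, 5.67 and 5.96 in CHS and 5.92, 5.99, 5.89 and 6.15 in FHS. With fructose the groups did not overlap, and with water rat 9, at 6.41, lay within the CNS range. The averaged difference was -0.52 (SE 0.10, 95% interval -0.73 to -0.32, adjusted p = 0.00243). It was -0.58 with fructose (SE 0.14, adjusted p = 0.0245) and -0.47 with water (SE 0.14, adjusted p = 0.0725), so only the first of these passed. That call was lost on leaving out rat 7, 8, 13, 14 or 15 (adjusted p 0.0518 to 0.0720), and with water Irs1 passed without rat 9 (-0.60, adjusted p = 0.0243).

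Irs2 (17709452), the related scaffold, did not pass. Its values were 7.28, 7.96, 7.07 and 7.28 in CNS, 7.05, 7.29, 7.25 and 7.19 in FNS, 6.99, 7.19, 7.07 and 6.91 in CHS and 7.01, 7.28, 7.22 and 7.35 in FHS. Rat 2 was the highest of all 16. The averaged difference was -0.17 (SE 0.11, adjusted p = 0.336). With water it was -0.36 (SE 0.15, adjusted p = 0.227) and without rat 2 it was -0.17 (SE 0.11, adjusted p = 0.424).

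Foxo1 (17738449) was lower on the high-salt chow, with 8.54, 8.62, 8.67 and 8.43 in CNS, 8.70, 8.66, 8.51 and 8.58 in FNS, 8.17, 8.09, 8.20 and 7.99 in CHS and 8.03, 8.60, 8.22 and 8.07 in FHS. The single high-salt value within the normal-salt range was that of rat 14. Averaged over the drinks, the difference was -0.42 (SE 0.08, 95% interval -0.59 to -0.24, adjusted p = 0.00375), and without rat 14 it was -0.48 (adjusted p = 0.000373). With water Foxo1 fell by 0.45 (SE 0.12, adjusted p = 0.0455). With fructose the value was -0.38 (SE 0.12, adjusted p = 0.0657), which did not pass, and without rat 14 it was -0.51 (adjusted p = 0.0104). The call with water was the least stable of those made: it was lost on leaving out any of 12 rats (rats 1 to 6, 8 to 12 and 15, adjusted p 0.0546 to 0.122). The second Foxo1 TranscriptClusterID, 17747301, had group means of 4.91 to 5.05, below the median of all means, and a difference of -0.04 (SE 0.08, adjusted p = 0.794).

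Foxo3 (17759333), the related factor, had a difference of the opposite sign that did not pass. Levels were 8.34, 8.26, 8.26 and 8.29 in CNS, 7.97, 8.10, 8.33 and 8.14 in FNS, 8.39, 8.33, 8.54 and 8.62 in CHS and 8.17, 9.05, 8.28 and 8.43 in FHS. Rat 14 had the highest level. The averaged difference was 0.26 (SE 0.11, unadjusted p = 0.0257, adjusted p = 0.118), and without rat 14 it was 0.17 (adjusted p = 0.136).

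Pik3r1 (17744919), a regulatory subunit of PI3K, measured 9.81, 9.79, 10.01 and 9.83 in CNS and 9.78, 9.78, 9.92 and 9.83 in FNS. In CHS it was 9.77, 9.70, 9.73 and 9.59, and in FHS 9.37, 9.77, 9.71 and 9.77. The 8 high-salt rats were all below the 8 normal-salt rats, a separation that 1.51% of all TranscriptClusterIDs had in that direction. The averaged difference of -0.17 (SE 0.07, unadjusted p = 0.0283, adjusted p = 0.125) did not pass. Without rat 13, the lowest, it was -0.12 (adjusted p = 0.221).

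The receptors did not pass. Insr (17671354) had group means of 8.41 ± 0.12 in CNS, 8.55 ± 0.10 in FNS, 8.32 ± 0.09 in CHS and 8.45 ± 0.12 in FHS (SD, n = 4), with all 16 rats between 8.22 and 8.64. The base diets differed by -0.09 (95% interval -0.23 to 0.05, adjusted p = 0.390). For Igf1r (17617445) the means were 9.18 ± 0.19, 9.18 ± 0.10, 9.06 ± 0.15 and 9.22 ± 0.23 in the same order, and the 16 rats spanned 8.91 to 9.54. The difference was -0.04 (95% interval -0.23 to 0.15, adjusted p = 0.827).

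Igfbp1 (17691476), the FoxO target with CAAAACA in its promoter, had the widest spread between rats of a group among the 10 (SD 0.68 in FHS). The levels were 8.06, 8.55, 8.00 and 8.25 in CNS, 8.22, 8.83, 8.19 and 8.87 in FNS, 8.35, 8.63, 8.42 and 8.76 in CHS and 9.45, 7.83, 8.97 and 8.86 in FHS. Both the highest and the lowest of the 16 rats were in FHS, rats 13 and 14. The base diets differed by 0.29 (95% interval -0.12 to 0.69, adjusted p = 0.358). Leaving out rat 14 gave 0.44 (SE 0.14, adjusted p = 0.0510), and leaving out rat 13 gave 0.17 (SE 0.18, adjusted p = 0.576).

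With each drink alone the counts were smaller. With water, CHS against CNS, 2 of the 10 genes passed (Ddit4 higher, Foxo1 lower), where 3.29% of all TranscriptClusterIDs and 5.05% of those above the median did. With fructose, FHS against FNS, 3 passed (Ddit4 and Castor1 higher, Irs1 lower), where 5.36% and 7.77% did. In the latter comparison Ddit4 and Castor1 were among the 7.16% whose FHS rats were all above the FNS rats, and Irs1 and Pik3r1 among the 6.12% whose FHS rats were all below. With water Ddit4 was among the 5.48% with CHS wholly above CNS, and Foxo1 and Pik3r1 among the 6.19% wholly below.

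**Figure D2:**
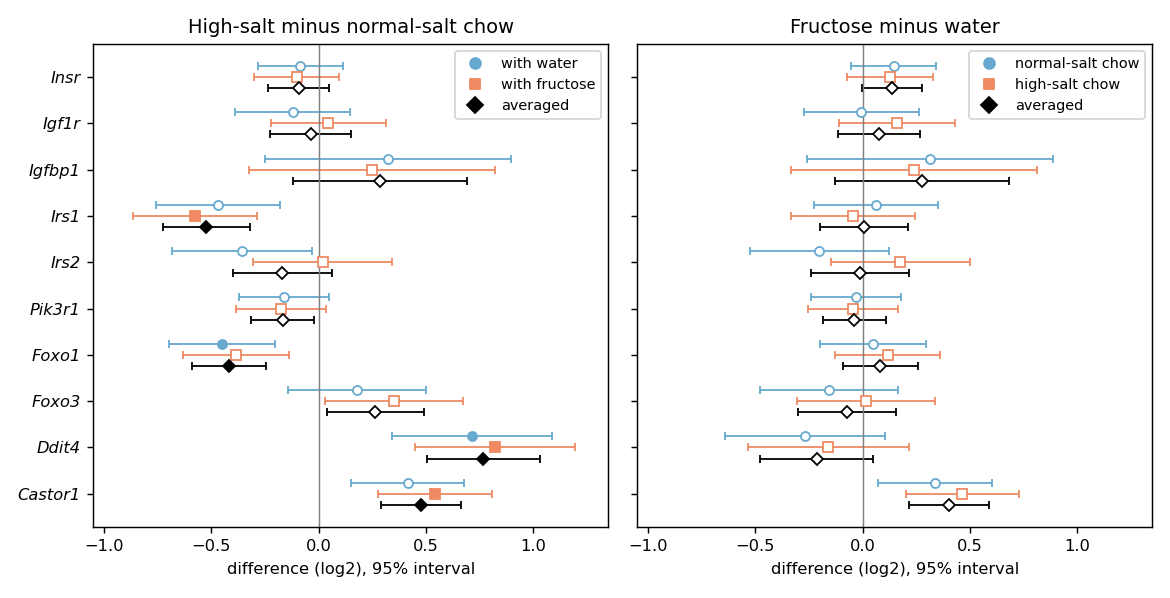
Differences of the 10 genes on the log2 scale with 95% intervals from limma, for high-salt minus normal-salt chow (left) and fructose minus water (right), with each partner diet and averaged. Filled symbols passed an adjusted p under 0.05: Ddit4, Castor1, Irs1 and Foxo1 did so for the averaged base diet difference, and none of the 10 for fructose.

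The second comparison was the effect of fructose on each base diet, ΔF(NS) and ΔF(HS). Castor1 was the gene of the 10 with the largest difference: FNS exceeded CNS by 0.34 (SE 0.12, 95% interval 0.07 to 0.60, unadjusted p = 0.0157, limma adjusted p = 1.00) and FHS exceeded CHS by 0.46 (SE 0.12, 95% interval 0.20 to 0.73, unadjusted p = 0.00186, adjusted p = 0.272). On the high-salt chow all 4 fructose rats were above all 4 water rats, as in 2.99% of all TranscriptClusterIDs. On the normal-salt chow rat 2 (CNS, 8.22) lay within the FNS range. Averaged over the base diets Castor1 differed by 0.40, or 1.32-fold (SE 0.09, 95% interval 0.21 to 0.59, unadjusted p = 0.000346, adjusted p = 0.211), which failed the correction. This contrast and that of the base diets are built from the same 4 groups.

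None of the 10 genes passed for fructose with limma. For ΔF(NS) 0 of all 36685 TranscriptClusterIDs passed (0%), and for ΔF(HS) and the average 1 did (0.00273%). At an unadjusted p under 0.05, 1 of the 10 genes counted in each of the 3 comparisons, Castor1, against 1521, 3530 and 2728 of all TranscriptClusterIDs. The analysis of variance named in the study's methods, run per base diet on the 8 arrays, also gave 0 genes of the 10 after Benjamini-Hochberg and 1 unadjusted on each diet. The study's own threshold for it was an unadjusted p under 0.05, required on both base diets for a gene called fructose-specific.

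Of the genes upstream, Insr had an averaged fructose difference of 0.14 (95% interval -0.0045 to 0.28, adjusted p = 0.691), with 0.14 on the normal-salt and 0.13 on the high-salt chow. Igfbp1 had 0.28 (95% interval -0.13 to 0.68, adjusted p = 0.793). Irs1 had 0.01 (95% interval -0.20 to 0.21) and Irs2 -0.01 (95% interval -0.24 to 0.22). These intervals are not adjusted for the number of TranscriptClusterIDs and are not limits of detection with 4 rats per group. Castor1, with an averaged fructose difference of 0.40, did not pass either (limma adjusted p = 0.211). Foxo1 had 0.08 (95% interval -0.09 to 0.26), Foxo3 -0.07 (-0.30 to 0.16) and Pik3r1 -0.04 (-0.19 to 0.11). Ddit4 went the other way from its base diet difference, at -0.21 (95% interval -0.48 to 0.05, adjusted p = 0.752), and did not pass.

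Whether the fructose difference depended on the base diet was tested as an interaction, the difference between ΔF(HS) and ΔF(NS). None of the 10 genes passed with limma, none had an unadjusted p under 0.05, and 0 of all TranscriptClusterIDs passed (0%, with 2235 at an unadjusted p under 0.05). Irs2 had the largest value, 0.38 (SE 0.22, 95% interval -0.08 to 0.84, adjusted p = 0.831), with -0.20 on the normal-salt and 0.18 on the high-salt chow. For Castor1 it was 0.13 (95% interval -0.25 to 0.50) and for Ddit4 0.11 (95% interval -0.42 to 0.64).

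The genes around the 10 were read from 8 lists of the same pathways. For the averaged base diet difference, 6.49% of all TranscriptClusterIDs passed as higher and 6.77% as lower. Of those with a mean above the median, 19.2% passed in either direction. When only these were fitted, 41.9% of those that passed were higher. Most list genes had a mean above the median, among them all 13 PI3K and Akt genes, 10 of 13 adaptors and inhibitors and 17 of 19 FoxO genes. The counts below are to be read against these shares. As the lists too were chosen with earlier results of these data known, the shares give a background and no test. With each array's median subtracted first, 33.2% of the TranscriptClusterIDs that passed were higher, against 49.0% on the deposited values.

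Of 13 measured adaptors and inhibitors of the insulin receptor, 3 were lower and 0 higher on the high-salt chow, with a median of -0.10. Grb14, an adaptor that inhibits the receptor's kinase, fell by 0.67 (SE 0.11, adjusted p = 0.00105), and its means were 6.65 ± 0.18 in CNS, 6.28 ± 0.19 in FNS, 5.86 ± 0.16 in CHS and 5.74 ± 0.32 in FHS. Gab1, a docking protein that binds PI3K, fell by 0.41 (SE 0.06, adjusted p = 0.000886). Socs2, a feedback inhibitor of growth hormone signaling, fell by 0.51 (SE 0.12, adjusted p = 0.00978). The 3 that moved thus include both an inhibitor and a carrier of the signal.

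Among PI3K and Akt genes 4 of 13 were lower and 0 higher, with a median of -0.16. Pik3ca, a catalytic subunit that pairs with the product of Pik3r1, fell by 0.43 (SE 0.07, adjusted p = 0.00114), from 7.94 ± 0.08 in CNS and 7.89 ± 0.14 in FNS to 7.47 ± 0.05 in CHS and 7.50 ± 0.17 in FHS. Pdpk1, the kinase that activates Akt, fell by 0.37 (SE 0.06, adjusted p = 0.00132). The other two were Gsk3a and Gsk3b, kinases that Akt inhibits. Over all alternatives, 3 to 6 genes of this list were lower (6 with array medians subtracted) and 0 higher. Of 11 insulin-like growth factor genes, related receptors and binding proteins, Igfbp4 rose by 0.38 (SE 0.10, adjusted p = 0.0209), and Igfbp5 and Insrr were lower, Igfbp5 by -0.56 (SE 0.08, adjusted p = 0.00039) and Insrr by -0.38 (SE 0.10, adjusted p = 0.0218).

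In the list of FoxO factors and their targets 2 of 19 were higher and 5 lower, with a median of -0.04, so the list did not move one way. Pck1, which encodes a rate-limiting enzyme of glucose synthesis, rose by 0.92 (SE 0.11, adjusted p = 0.000154), with means of 11.74 ± 0.35 in CNS, 12.34 ± 0.25 in FNS, 12.76 ± 0.08 in CHS and 13.15 ± 0.16 in FHS. Bcl2l11, which promotes cell death, was also higher. Sesn3, a stress-induced inhibitor of mTORC1, fell by 0.39 (SE 0.09, adjusted p = 0.0106). Foxo4, itself a FoxO factor, and Fbxo32, Cat and Ppargc1a were the others that were lower. Leaving out 1 rat at a time gave 1 to 3 higher and 2 to 5 lower, and without rat 14 there were 2 and 3.

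The mTOR complexes and their substrates had 1 gene of 16 lower, Deptor, an inhibitor bound to both complexes, at -0.42 (SE 0.07, adjusted p = 0.00179), and 0 higher. Mlst8, a subunit of both complexes, was next at 0.27 (SE 0.09, adjusted p = 0.0544) and did not pass. Of 26 genes of amino acid sensing 2 were higher and 2 lower: Lamtor5 and Fnip2, and Castor2 and Wdr59. Fnip2, a partner of folliculin, rose by 0.62 (SE 0.12, adjusted p = 0.00377), and Wdr59, a subunit of GATOR2, the complex that Castor1 binds, fell by 0.38 (SE 0.09, adjusted p = 0.00935). Of the 11 AMP-activated protein kinase genes, Prkaa2 and Prkag2, a catalytic and a regulatory subunit, fell by 0.27 (SE 0.08, adjusted p = 0.0263) and 0.31 (SE 0.09, adjusted p = 0.0299), and 0 rose. Without rat 1, 5 or 8 neither of these 2 passed.

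The glucocorticoid-responsive genes were listed because Ddit4 is induced by glucocorticoids. All 7 were above 0, with a median of 0.64, and 4 passed as higher: Per1, Tsc22d3, Fkbp5 and Klf9. Per1, a clock gene, measured 6.07, 7.28, 6.19 and 6.30 in CNS, 5.73, 6.11, 5.87 and 5.88 in FNS, 8.06, 8.01, 7.84 and 8.02 in CHS and 8.25, 7.97, 7.88 and 7.89 in FHS, a difference of 1.81 (SE 0.14, adjusted p = 3.77e-06). Every high-salt rat was above every normal-salt rat, as in 0.954% of all TranscriptClusterIDs. Rat 2 was the highest of the normal-salt rats. Tsc22d3, a mediator of glucocorticoid action, rose by 0.78 (SE 0.08, adjusted p = 2.27e-05), and Fkbp5, a chaperone of the glucocorticoid receptor, by 0.70 (SE 0.22, adjusted p = 0.0438). Leaving out 1 rat at a time gave 3 to 5 called genes. Their part in the difference of Ddit4 was not tested. The study's methods do not give the time of day at which each group was sampled, so its part could not be tested either. Some markers of other cells passed. Slc5a1 was lower among 5 S3 segment markers, of which 2 were above 0. Of 6 collecting duct markers Aqp2 and Scnn1g were higher and Atp6v1g3 lower. Wt1 was lower among 3 podocyte markers (0 above 0) and Cdh5 among 3 of endothelium (1 above 0). Among 5 fibroblast and smooth muscle markers Col3a1 was higher and Myh11 lower. Among 6 of macrophages C1qa was higher and Cx3cr1 lower. The summed linear level of the S3 markers was 2954 to 11310 in CNS, 4286 to 12984 in FNS, 3573 to 11455 in CHS and 5027 to 12286 in FHS. The summed linear level of the 6 collecting duct markers was 4133 to 4787 in CNS, 3794 to 4497 in FNS, 4452 to 5157 in CHS and 4670 to 5440 in FHS. That of the 3 measured podocyte markers was 1486 to 1791, 1495 to 1665, 1274 to 1502 and 1347 to 1716 in the same order. For the 3 measured endothelium markers it was 2189 to 2670, 1812 to 2395, 1784 to 2160 and 1822 to 2183. Their CHS range lay wholly below that of CNS, while FHS and FNS overlapped. For the 6 macrophage markers it was 4188 to 5338, 3600 to 4639, 3814 to 4660 and 4671 to 5746. Their FHS range lay wholly above those of FNS and CHS, while CHS and CNS overlapped. The part of these cells in the differences of the 10 genes was not tested.

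**Figure D3:**
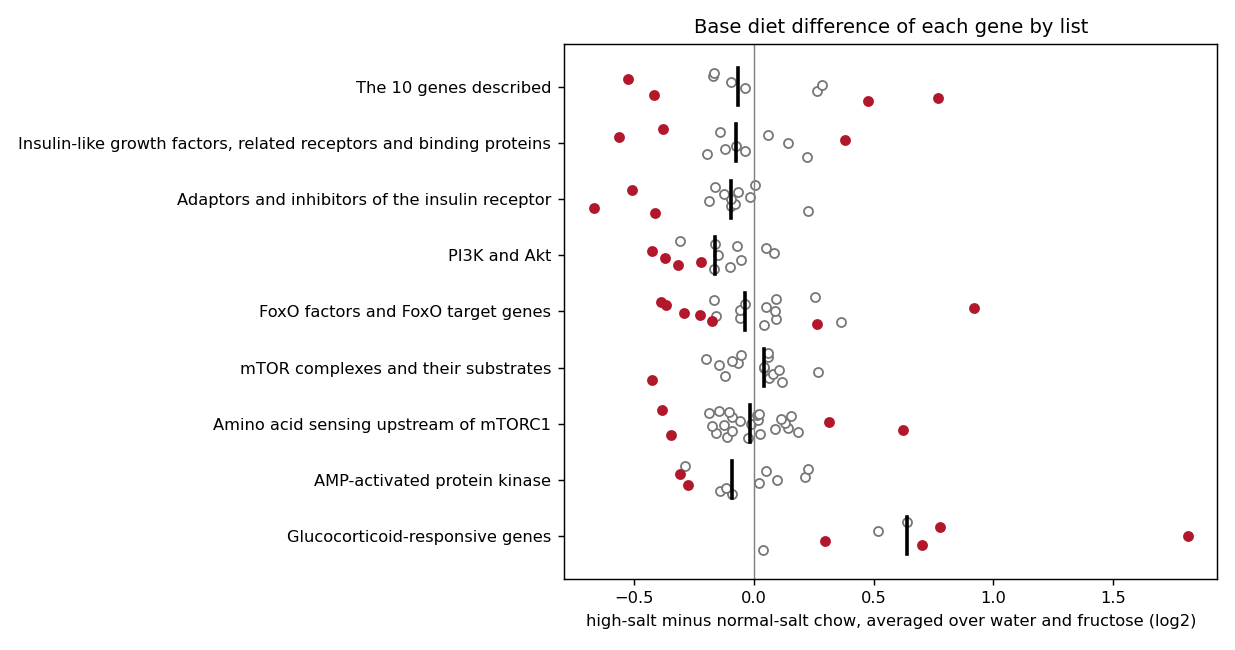
Difference between base diets (high-salt minus normal-salt chow, averaged over the drinks, log2, horizontal axis) of every measured gene of the 10 and of the 8 surrounding lists (1 point per gene, filled where the adjusted p was under 0.05). The 7 glucocorticoid-responsive genes all lay above 0, and the PI3K and Akt genes that passed all lay below it.

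For fructose averaged over the base diets, 0 genes of the 8 lists passed with limma. Igf1, which encodes a ligand of the Igf1r receptor, had the value of -0.46 (SE 0.11, adjusted p = 0.269), with means of 8.65 ± 0.11 in CNS, 8.27 ± 0.24 in FNS, 8.95 ± 0.26 in CHS and 8.41 ± 0.24 in FHS. Pck1 had 0.49 (SE 0.11, adjusted p = 0.243). These were the lists' genes nearest to the threshold beside Castor1 itself. The genes named by rank in the adaptor list, Socs2 and Grb14, had -0.28 (SE 0.12, adjusted p = 0.631) and -0.24 (SE 0.11, adjusted p = 0.646). In the amino acid sensing list Rragc, a GTPase that recruits mTORC1, had -0.16 (SE 0.07, adjusted p = 0.628), and Nprl2, a subunit of GATOR1, had -0.20 (SE 0.09, adjusted p = 0.665). The other genes with the smallest p in their list were further from the threshold (adjusted p 0.672 or more). They had 0.11 for Gab1, -0.17 for Insrr, -0.18 for Igfbp2, 0.06 for Pik3cb, 0.12 for Pik3cd and -0.21 for Pik3r3 among the receptor, ligand and kinase genes, and -0.17 for Sesn3 and 0.15 for Cited2 among the FoxO targets. In the mTOR, amino acid and AMP-activated protein kinase lists they had 0.10 for Prr5, 0.15 for Tbc1d7, 0.14 for Rps6kb2, -0.14 for Lamtor3, -0.14 for Prkaa1, -0.07 for Prkag1 and -0.14 for Prkag3. Of the glucocorticoid-responsive genes, Per1 had -0.28, Fkbp5 -0.09 and Tsc22d3 0.04.

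**Figure D4:**
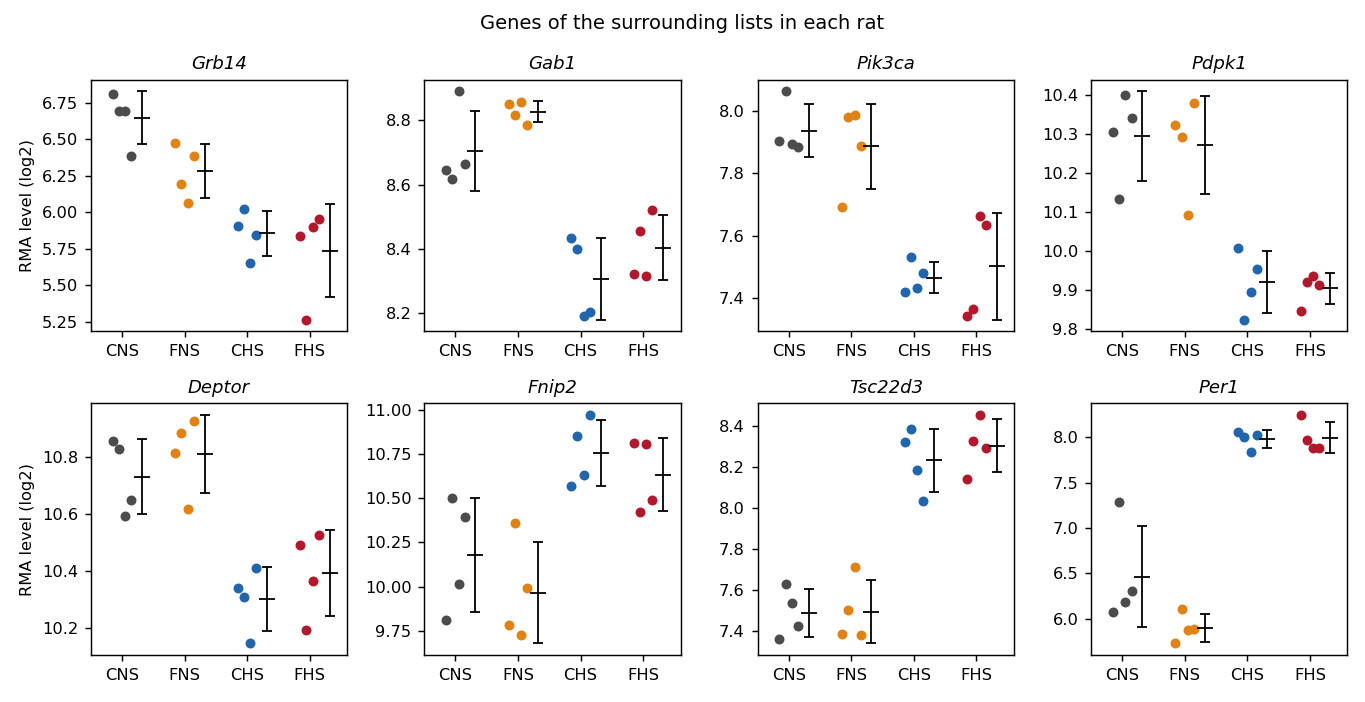
RMA level (log2, vertical axis) of 8 genes of the surrounding lists in each rat (points) by group, with the group mean and SD (4 rats per group; each panel has its own scale). Grb14, Gab1, Pik3ca, Pdpk1 and Deptor had lower means on the high-salt chow (CHS and FHS), and Fnip2, Tsc22d3 and Per1 higher ones.

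To see whether the genes varied together between rats of the same group, group means were removed and the 45 pairs of the 10 genes were correlated over 16 rats. None passed (permutation within groups, 2-sided, Benjamini-Hochberg over the pairs). The lowest p was that of Foxo3 and Castor1, with Pearson's r = -0.61 (permutation p = 0.00783, adjusted p = 0.352) and Spearman's rho = -0.67 (permutation p = 0.00945, adjusted p = 0.425). Without rats 5 and 14, which lay farthest from the median of Foxo3, r was -0.60. The pair Igfbp1 and Foxo1 (r = -0.70, permutation p = 0.0575, adjusted p = 0.398, rho = -0.52, permutation p = 0.0753, adjusted p = 0.581), had r = -0.13 without rats 13 and 14 and so rested on them.

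The genes whose level over all 16 rats was most like that of Ddit4 were Ndufv1 (Pearson's r = 0.91, Spearman's rho = 0.91), Ddah2 (r = 0.90, rho = 0.87) and Gpd1l1 (r = 0.90, rho = 0.92). For Castor1 they were Acot7 (r = 0.92, rho = 0.87), Fn3k (r = 0.91, rho = 0.92) and Agtrap (r = 0.91, rho = 0.85). For Igfbp1 they were Ptcd3 (r = 0.91, rho = 0.91), Car4 (r = 0.84, rho = 0.87) and Slc6a19 (r = 0.84, rho = 0.81). Leaving out the 2 rats farthest from each gene's median gave r of 0.76 to 0.93. These are descriptions: the 3 genes were those with the largest SD over the 16 rats (0.47, 0.36 and 0.43), the like genes were picked as the highest of all with 1 symbol, and the rats fall into the same 4 groups for every gene.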

How the data were processed

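RNA of the renal cortex of 16 rats was hybridized to 1 Affymetrix RaGene 2.0 ST array each. Per the labels and the study's methods, the authors summarized probes to TranscriptClusterIDs with RMA in Affymetrix Expression Console (quartile normalization and median polish are the settings named), and the deposited values are log2. Normalization between arrays would reduce a change common to most genes. No detection threshold comes with the values, and the number of arrays limits precision. All 36685 TranscriptClusterIDs were used, and 0 columns were unmapped. No 2 arrays were identical. The platform annotation gave 1 gene for 18511 TranscriptClusterIDs, several for 575 and none for 17599. Older symbols were updated through RefSeq (GRCr8).

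Group means over all 16 arrays were fitted with limma 3.58.1 in R 4.3.3 (empirical Bayes), two-sided, and called at an adjusted p under 0.05 (Benjamini-Hochberg over all TranscriptClusterIDs). Intervals are 95%. Fits were tested on simulated data. Co-variation used 100000 permutations within groups. Other steps used Python 3.11.15, numpy 2.4.6, pandas 2.3.3, scipy 1.17.1 and matplotlib 3.10.9. The alternatives were dim TranscriptClusterIDs left out (mean not above the median), quantile normalization, array medians subtracted, the 8 arrays compared alone, an intensity trend, the methods' analysis of variance and each rat left out.

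The 10 genes and all lists were chosen with earlier results of these data known. Named from each list were up to 3 genes with the smallest p for averaged fructose and up to 2 for the averaged base diet. Genes named beyond these are those that passed where 5 or fewer did, and were chosen after their values were seen. Of the 123 list genes 7 were not found, as were 7 of the 63 markers of 12 cell types. No marker of any of these cell types passed for averaged fructose.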

Additional observations from a re-analysis of the deposited data

Results flagged for a closer look

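Of 40 sets of 4 rats (10 genes in 4 groups), 1 held a value far from the others by Dixon's criterion. Pik3r1 in FHS measured 9.37 in rat 13, while the other 3 rats lay between 9.71 and 9.77, a gap of 0.836 of the range, above the 95% critical value for 4 samples. By chance about 1 in 20 sets would be marked.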

How the results depend on the processing

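For the averaged base diet difference, Ddit4, Castor1, Irs1 and Foxo1 passed under every alternative run and without each rat in turn. Of 1460 alternative values of the 10 genes, 1421 kept their side of the threshold, 30 lost the call and 9 gained it. No called value changed sign, and 57 values called in neither fit did. The number of TranscriptClusterIDs called moved as follows. With dim ones left out ΔF(HS) gave 22 and 4 of the 10 genes passed with water. With the 8 arrays compared alone ΔF(HS) gave 0, the base diet difference with water 533 (0 of the 10 genes) and that with fructose 733. The intensity trend gave 3 for ΔF(HS), and the methods' analysis of variance 0 after adjustment (2828 unadjusted). Subtracting array medians gave 0 for averaged fructose. The first 2 settings used fewer TranscriptClusterIDs and fewer arrays, in that order. The causes of these changes were not tested. Leaving out 1 rat gave 3854 to 5111 TranscriptClusterIDs for the averaged base diet, 562 to 1468 with water (0 to 2 of the 10 genes) and 868 to 2186 with fructose (1 to 3 of the 10 genes), 0 to 4 for ΔF(HS) and averaged fructose, 0 for ΔF(NS) and 0 to 1 for the interaction. With quantile normalization Foxo1 lost its call with water (adjusted p = 0.0785), and with array medians subtracted it passed with fructose (adjusted p = 0.0243). No pair of the 10 genes passed for co-variation under any alternative. No paired analysis was possible because the rats are numbered 1 to 16 and no number is shared between groups. Signal over background is not in the values, so limits at dim levels are unknown.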
